A study of Homo sapiens with 13 samples.

Results

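Enhancers that carried acetylated histone H3 and RNA polymerase II (Pol II), but neither the coactivators p300/CBP nor the promoter mark H3K4me3, were described in MDA-MB-231 cells. These cells are an established human line from a triple negative, basal b breast cancer, and all were untreated and grown under standard conditions. Chromatin immunoprecipitation and sequencing (ChIP-seq) had been performed for Pol II, CTCF and the histone marks H3K4me1, H3K27ac and H3K4me3 in 2 replicates each, and for p300/CBP in 1 library from pooled immunoprecipitations, so that everything below describes 1 cell line in 1 condition. A candidate active enhancer (cAE) was taken as a region of H3K4me1 under 10000 bp that had 1 bp or more in common with H3K27ac, overlapped no H3K4me3 region and touched no promoter window, a stretch of 3 kb centred on the canonical transcription start site (TSS) of a protein-coding gene. The paper uses the same name for a different set, which includes regions with H3K4me3, has no stated width limit and rests on RefSeq promoters. Of 88319 H3K4me1 regions, 87202 were under the width limit, 34485 of these overlapped H3K27ac, 23380 of those lay outside promoter windows and 15683 had no H3K4me3. Pol II peaks overlapped 1324 of the 15683 cAEs. No p300/CBP peak overlapped 1038 of the 1324, and these 1038 regions, 1.18% of all H3K4me1 regions and 6.62% of the cAEs, are called Pol II-only cAEs here, where "only" refers to p300/CBP. The other cAEs fell into 286 with both factors, 2924 with p300/CBP and without Pol II, and 11435 with neither.

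H3K4me1 is a methylation that marks enhancers whether or not they are in use, whereas H3K27ac is found at active enhancers and promoters, and H3K4me3 is strongest at active promoters. p300 and CBP are related acetyltransferases that add the acetyl group to lysine 27 of histone H3 and are brought to enhancers by transcription factors such as AP-1. Pol II transcribes many active enhancers into short and unstable enhancer RNAs, but it is also found along the bodies of transcribed genes and past their ends, where it slows before it leaves the template. CTCF binds a long DNA motif and, with cohesin, anchors chromatin loops. The regions were selected on the measured peaks of H3K4me1, H3K27ac, H3K4me3, Pol II and p300/CBP, on their width and on canonical TSSs, so values of these are given below as a description and without a test. The annotation of the sequence, its letters and the CTCF peaks were not used in the selection.

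Sequences of 5 Pol II-only cAEs, picked for their motifs, are given as examples and are not typical of the class. All were read from the plus strand of GRCh37 (hg19), 5′ to 3′. The first 3 hold at least 2 copies of the AP-1 heptamer TGACTCA or its reverse complement TGAGTCA (capitals) in the 300 bp centred on the stretch shared by H3K4me1 and H3K27ac. They were taken from 5 such regions that lay outside genes and contained all their Pol II peaks. In the 500 bp at the same centre, only 36 of the 1038 regions (3.47%) held 2 or more heptamers.
chr14:69931476-69931775, 19.0 kb upstream of the TSS of PLEKHD1: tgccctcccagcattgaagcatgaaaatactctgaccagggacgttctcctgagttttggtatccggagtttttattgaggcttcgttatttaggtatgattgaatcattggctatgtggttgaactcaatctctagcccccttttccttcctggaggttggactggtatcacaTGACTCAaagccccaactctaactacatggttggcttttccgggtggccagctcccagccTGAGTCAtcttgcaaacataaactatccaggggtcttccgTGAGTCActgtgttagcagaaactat
chr7:154958376-154958675, 95.6 kb downstream of the TSS of HTR5A, a serotonin receptor: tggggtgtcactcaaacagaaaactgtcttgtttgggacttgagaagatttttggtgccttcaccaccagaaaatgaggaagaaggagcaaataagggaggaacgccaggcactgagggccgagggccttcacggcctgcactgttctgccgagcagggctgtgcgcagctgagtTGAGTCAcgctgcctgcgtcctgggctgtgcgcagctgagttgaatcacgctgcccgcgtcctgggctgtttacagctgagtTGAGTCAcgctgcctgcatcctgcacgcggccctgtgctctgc
chr6:10633526-10633825, 59.7 kb downstream of the TSS of C6orf52: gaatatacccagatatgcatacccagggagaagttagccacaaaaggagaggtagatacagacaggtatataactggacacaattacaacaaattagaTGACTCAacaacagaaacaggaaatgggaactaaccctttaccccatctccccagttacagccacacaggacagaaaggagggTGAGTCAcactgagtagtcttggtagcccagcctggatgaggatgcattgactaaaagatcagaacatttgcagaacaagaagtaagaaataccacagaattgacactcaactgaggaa
The other 2 hold a core of the CTCF motif (capitals), searched on both strands as CCA, AG and GGC in this order with 2 free bases between neighbours, inside a CTCF peak that touches the Pol II peak. They are shown over 100 bases around the core, and were chosen after the values were seen as those outside genes with the longest shared run among 12 such regions. The core was found in the central 500 bp of 51 of the 1038 regions (4.91%).
chr20:49407144-49407243, in a region 3.30 kb upstream of the TSS of BCAS4: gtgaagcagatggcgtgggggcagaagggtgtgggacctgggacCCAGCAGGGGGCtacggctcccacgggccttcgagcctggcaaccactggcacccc
chr17:78958709-78958808, in a region 5.79 kb upstream of the TSS of CHMP6, a subunit of the membrane-sorting complex ESCRT-III: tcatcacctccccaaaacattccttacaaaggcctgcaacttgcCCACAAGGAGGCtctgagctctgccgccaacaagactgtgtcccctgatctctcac

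The 1038 regions had a median width of 2950 bp (quartiles 1950 and 4500 bp), and H3K27ac covered a median of 47.5% of a region (28.6% and 64.0%). Those with neither factor were narrower, with a median of 2200 bp (1450 and 3300 bp), and 38.7% covered (21.4% and 59.6%). Those with p300/CBP and without Pol II were wider, at 3500 bp (2400 and 5050 bp), and 58.8% covered (37.7% and 77.8%). The ranges between quartiles overlapped for all 3 classes. The widest Pol II-only cAEs, just under the limit, measured 9850 bp in ARHGAP29 and 9750 bp in both TOP1, the gene of DNA topoisomerase I, and NCEH1. Without the limit 39 more regions would have qualified, of which the 3 narrowest measured 10050 bp each and lay in FRMD4A, in ITPR3 and between genes on chromosome 8.

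Pol II sat at these regions in several ways. The 1038 regions were touched by 1130 Pol II peaks, 4.34% of the Pol II list, with a median width of 550 bp and a range from 150 to 74100 bp. Of these peaks 544 (48.1%) measured 500 bp or less, and 125 (11.1%) were wider than 5000 bp. The region wholly contained a Pol II peak in 692 cases (66.7%, 95% Wilson interval 63.7% to 69.5%), and it contained every Pol II peak that touched it in 656. In 93 cases the region contained none and lay wholly inside a wider Pol II peak, and in 253 cases Pol II peaks only crossed an edge. The widest Pol II peak had a median of 350 bp at the regions that contained one, 2500 bp at those crossed at an edge and 8150 bp at those lying inside one. A stretch common to H3K4me1, H3K27ac and Pol II was present in 952 regions (91.7%), with a median length over all regions of 300 bp (quartiles 150 and 600 bp). Only 19 regions shared a Pol II peak with another one. Because Pol II was chosen for, these values describe the regions and were not tested.

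**Figure D1:**
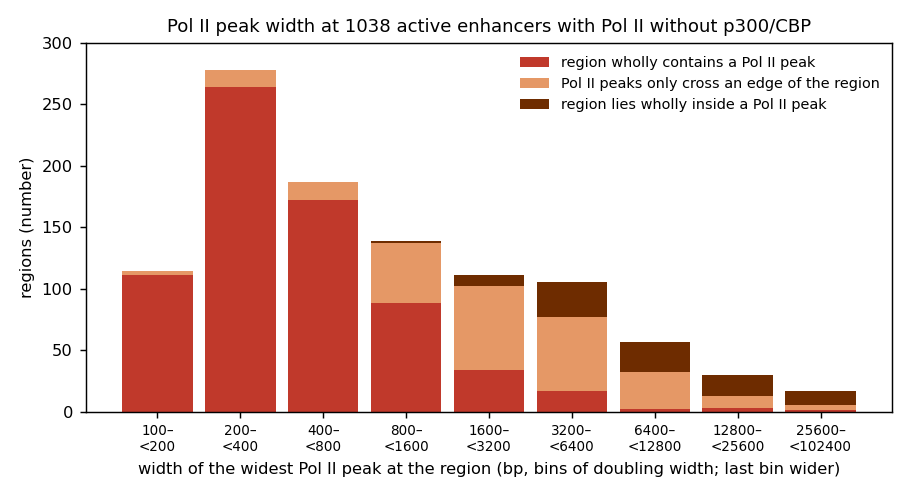
Number of Pol II-only cAEs (y axis) by the width in bp of the widest Pol II peak that touches them (x axis, bins that double in width except the last), split by whether the region contained a Pol II peak (692), was only crossed at an edge (253) or lay inside one (93). Regions with narrow Pol II peaks mostly contained them, and regions with peaks over 6400 bp mostly did not.

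The longest stretch shared by the 3 lists, 4750 bp, was found in the body of ACTN4, the gene of the actin cross-linking protein alpha-actinin-4, at chr19:39206951-39214451. That region lay inside a Pol II peak of 61550 bp that also covered 2 further Pol II-only cAEs at chr19:39215901-39220151 and chr19:39221551-39226301. The next was at chr4:81226001-81232501, within the annotated span of FGF5, a fibroblast growth factor. There H3K27ac covered 98.5% of 6500 bp, and a Pol II peak of 3500 bp was contained in the region. Another, at chr6:33657701-33666001, also shared 3500 bp and spanned the facing ends of ITPR3, a calcium channel of the endoplasmic reticulum, and UQCC2, an assembly factor of respiratory complex III.

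The widest Pol II peaks over such regions lay along long transcribed genes. A peak of 74100 bp held the region at chr14:102481451-102491001 in DYNC1H1, the heavy chain of cytoplasmic dynein, where H3K27ac covered 23.0% of 9550 bp. A peak of 63950 bp held the region at chr17:62566651-62572851 in SMURF2, a ubiquitin ligase of TGF-beta signaling, where H3K27ac covered 23.4% of 6200 bp. Over all 93 regions lying inside a Pol II peak, H3K27ac covered a median of 27.6%, against 51.8% over the 692 regions that contained one.

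Around the centre of the stretch shared by H3K4me1 and H3K27ac, Pol II covered 53.9% of the 1038 regions at the centre. The share was 25.1% at 1000 bp to the left and 21.6% at 1000 bp to the right, and still 17.5% and 15.7% at 3000 bp. The same position was not covered by Pol II in the other 2 classes by definition. CTCF peaks covered 4.53% of the Pol II-only cAEs at the centre, against 3.10% of the cAEs with neither factor and 0.513% of those with p300/CBP. H3K27ac at 1000 bp to the left was found in 28.6%, 13.2% and 49.0% of the 3 classes, respectively.

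**Figure D2:**
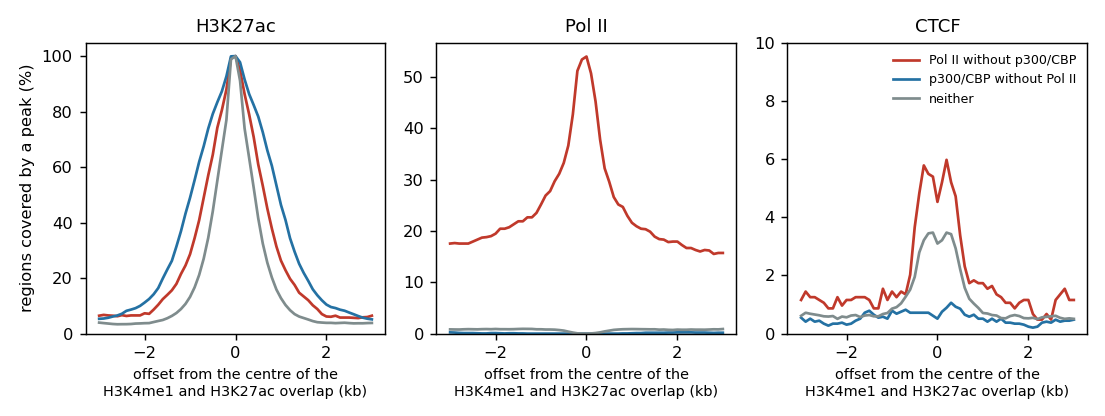
Share of regions covered by a peak (y axis, %) of H3K27ac, Pol II or CTCF at each offset in kb (x axis) from the centre of the longest stretch shared by H3K4me1 and H3K27ac, for the 1038 Pol II-only cAEs, the 2924 with p300/CBP only and the 11435 with neither. All classes are at 100% for H3K27ac at the centre by construction, Pol II peaks at 53.9% in the Pol II-only class, and the y axes differ between panels.

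Pol II-only cAEs were close to genes. The median distance to the nearest canonical TSS was 19.5 kb (quartiles 9.13 and 45.8 kb), against 49.9 kb (19.5 and 122 kb) for those with neither factor and 87.8 kb (35.6 and 209 kb) for those with p300/CBP only. Within 10 kb of a TSS, but outside the promoter windows, lay 288 of them (27.7%), against 12.9% and 6.74% in the other 2 classes. Only 98 (9.44%) lay over 100 kb away, against 30.5% and 46.2%. The promoter of the nearest gene carried a Pol II peak for 789 of them (76.0%), against 65.5% and 60.1%. As distance from a TSS entered the choice of all classes, no test was made. The farthest 3 lay 594 kb from the TSS of BRINP1 at chr9:122725501-122726951, 550 kb into MYO16, an unconventional myosin, at chr13:109831951-109835801, and 542 kb from DIPK2B at chrX:45602301-45606901. Pol II peaks were narrow at the first 2 of these, 150 and 350 bp, while the region on the X chromosome lay inside a Pol II peak of 32450 bp.

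**Figure D3:**
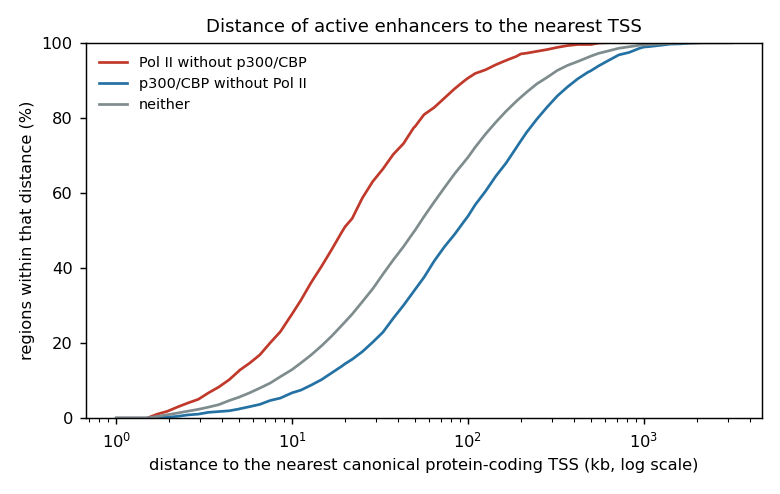
Cumulative share of regions (y axis, %) lying within a given distance of the nearest canonical protein-coding TSS (x axis, kb, log scale) for the 3 classes of cAEs. The curve of the Pol II-only cAEs lies to the left of the other two, with medians of 19.5, 49.9 and 87.8 kb for Pol II only, neither and p300/CBP only.

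The regions fell in annotated genes more often than other cAEs. A protein-coding gene body was touched by 653 of the 1038 (62.9%, where 54.2% of all 15683 cAEs did so). The share was 55.9% in those with neither factor, an odds ratio of 1.34 (95% interval 1.18 to 1.53, Fisher's exact test, adjusted p = 1.85e-05), and 45.0% in those with p300/CBP only, an odds ratio of 2.07 (1.79 to 2.39, adjusted p = 1.54e-22). All tests between classes were two-sided Fisher's exact tests with Benjamini-Hochberg adjustment. They count regions, which are not replicates, so that their p-values cover counting error in a single merged dataset. Over quartiles of region width the first Mantel-Haenszel odds ratio was 1.17 (1.02 to 1.34). The distance to the nearest TSS, which differed between the classes, was not taken into account for gene bodies. Both compared classes lack Pol II by definition, and Pol II is also found along transcribed genes. A trait of these enhancers therefore cannot be told apart here from the choice of regions by Pol II. Of the 653 regions in gene bodies, the promoter of a gene they touched carried Pol II in 526 (80.6%) and H3K27ac in 558 (85.5%). Over all cAEs in gene bodies these shares were already 69.1% and 77.3%, and the differences were not tested.

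Exons and gene ends were also touched more often by Pol II-only cAEs. An exon of a canonical transcript was touched by 379 of them (36.5%, against 14.7% of all cAEs), 13.5% of those with neither factor (odds ratio 3.69, 3.22 to 4.23, Fisher's exact test, adjusted p = 3.90e-69) and 11.5% of those with p300/CBP only (4.43, 3.74 to 5.25, adjusted p = 2.07e-65). The stretch from an annotated gene end to 5 kb past it was touched by 289 (27.8%, against 6.03% of all cAEs). Only 4.56% of the cAEs with neither factor touched such a stretch (odds ratio 8.08, 6.88 to 9.50, Fisher's exact test, adjusted p = 5.69e-117), and 3.73% of those with p300/CBP only (9.96, 7.88 to 12.6, adjusted p = 5.75e-94). Both features were added after the data had been seen, and adjusted over these 4 tests. In 313 of the 1038 regions (30.2%) a Pol II peak itself touched a gene end stretch. The 2 tested classes hold no Pol II by definition, and Pol II is also found along genes and past their ends. These tests therefore cannot tell a trait of the enhancers from the choice of regions by Pol II. Over quartiles of distance to the TSS the odds ratios were 2.88 (2.50 to 3.32) and 2.73 (2.26 to 3.29) for exons, and 5.69 (4.81 to 6.72) and 5.50 (4.27 to 7.09) for gene ends. Of the 286 cAEs with both Pol II and p300/CBP, 45 touched an exon (15.7%) and 26 a gene end (9.09%), values set beside the others without a test.

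Gene ends went with wide Pol II peaks. The widest Pol II peak had a median of 2300 bp at the 289 regions near a gene end (quartiles 800 and 4550 bp), and 450 bp at the other 749 (200 and 1150 bp). A gene end was near 17.5% of the regions that contained a Pol II peak, 45.8% of those crossed at an edge and 55.9% of those inside a peak. H3K27ac covered a median of 36.5% of the regions near a gene end and 51.4% of the others. Pol II at an enhancer and Pol II of the gene that runs through the same place cannot be told apart in these lists. At the other extreme, 248 regions contained a Pol II peak and touched neither a gene body nor a gene end. These had a median Pol II peak of 300 bp (quartiles 200 and 500 bp), H3K27ac over 57.6% of the region and a median distance of 33.1 kb to the nearest TSS.

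CTCF peaks were found in more of the Pol II-only cAEs than of the other classes. A CTCF peak overlapped 253 of the 1038 regions (24.4%, 21.9% to 27.1%, where 13.4% of all cAEs had one). The share was 13.3% in the cAEs with neither factor (odds ratio 2.11, 1.81 to 2.45, Fisher's exact test, adjusted p = 2.01e-19) and 9.61% in those with p300/CBP only (3.03, 2.51 to 3.66, adjusted p = 5.39e-29). At 166 of the 253 (65.6%) the CTCF peak touched a Pol II peak, and at 195 (77.1%) it touched the H3K27ac stretch, as it did at 71.0% of all cAEs with CTCF. CTCF was present at 21.4% of the regions that contained a Pol II peak, 26.5% of those crossed at an edge and 40.9% of those inside one, and at 32.9% of the regions near a gene end against 21.1% of the others. Among the 248 regions away from genes and gene ends, 49 (19.8%) had CTCF. Of the cAEs with both Pol II and p300/CBP, 44 of 286 had CTCF (15.4%), which was not tested. The GC content of the 500 bp at the centre moved with these classes, and over its quartiles the odds ratios were 1.57 (1.34 to 1.83) and 2.15 (1.72 to 2.69). The CTCF and Pol II lists were the only ones not named as having background removed, and whether this bears on their overlap was not tested.

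**Figure D4:**
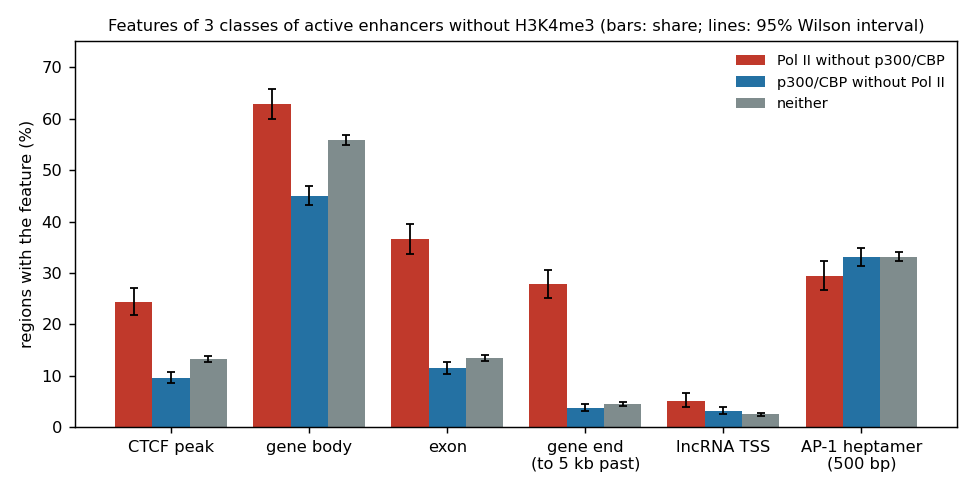
Share of regions (y axis, %, with 95% Wilson intervals) that carried each feature (x axis) in the Pol II-only cAEs (red, 1038), those with p300/CBP only (blue, 2924) and those with neither (grey, 11435). CTCF peaks, exons and gene ends stood highest of these 3 classes in the Pol II-only class, at 24.4%, 36.5% and 27.8%, and the AP-1 heptamer was found in 29.5%, against 33.1% and 33.2%. The 286 cAEs with both factors are not drawn.

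TSSs that the choice of regions had not excluded were found in some of them. The TSS of a non-coding RNA, long or small, lay in 54 of the 1038 (5.20%, where 2.95% of all cAEs held one). All 54 held the TSS of a long non-coding RNA (lncRNA). This compared with 2.59% of those with neither factor (odds ratio 2.07, 1.53 to 2.78, Fisher's exact test, adjusted p = 1.58e-05) and 3.25% of those with p300/CBP only (1.63, 1.16 to 2.30, adjusted p = 0.00770). Distance to protein-coding TSSs, which differed between the classes, was not taken into account. The cAEs with both Pol II and p300/CBP held one in 18 of 286 (6.29%, 4.02% to 9.73%), no less than the Pol II-only class, without a test. The longest shared runs among them, named after their values were seen, were 3350 bp at chr12:113628451-113636501, which overlapped RITA1 and IQCD and the ends of both, and 2650 bp at chr19:49426501-49431951, at the end of NUCB1. Farther from protein-coding genes, the TSS of LINC01963 lay in the region at chr2:217079401-217083901, which contained a Pol II peak and shared 1600 bp with it and H3K27ac. A non-canonical TSS of a protein-coding gene lay in 24 regions (2.31%, against 1.40% of all cAEs, without a test), such as those of CHRNA1, a subunit of the acetylcholine receptor, and GDF15, a stress-induced cytokine. In 50 regions (4.82%, 3.67% to 6.29%) the Pol II peak reached into a promoter window, and in 95 (9.15%) it touched an H3K4me3 region outside the enhancer.

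Sequence at the centre of the regions was rich in GC. The GC content of the 500 bp had a median of 51.2% (quartiles 46.2% and 57.1%), against 44.4% (39.4% and 49.8%) in the cAEs with neither factor and 41.0% (36.8% and 45.4%) in those with p300/CBP only. The number of CpG dinucleotides was 7 (5 and 12), 5 (3 and 7) and 3 (2 and 6), respectively. The TATA motif TATAAA, searched on both strands as were all motifs, was found in 17.5% of the Pol II-only cAEs, 30.5% of those with neither and 38.7% of those with p300/CBP only, and in 11.7% of 500 bp windows at promoters. The ETS motif CCGGAA was found in 8.77%, 5.54% and 5.23%, and in 28.6% of promoters. These shares were not tested, and the GC content given above differed between the same classes.

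The AP-1 heptamer, the site of dimers of Fos and Jun proteins, was present in the 500 bp of 306 Pol II-only cAEs (29.5%, where 32.8% of all cAEs held it) and 4.81% of promoter windows. It was found in 33.2% of the cAEs with neither factor (odds ratio 0.841, 0.732 to 0.966, Fisher's exact test, adjusted p = 0.0164) and in 33.1% of those with p300/CBP only (0.846, 0.725 to 0.987, adjusted p = 0.0334). The cAEs with both factors held it in 80 of 286 (28.0%, 23.1% to 33.4%), which was not tested, and the interval includes the shares of the Pol II-free classes. GC content, which differed between the classes, was not taken into account for AP-1. The small differences from the Pol II-free classes lost significance when Pol II had to be centred in the region, with odds ratios of 0.906 (adjusted p = 0.249, Fisher's exact test) and 0.907 (adjusted p = 0.273), and 11 of the alternative odds ratios for AP-1 no longer passed the threshold. The TEAD motif GGAATG was found in 32.1% of the Pol II-only class, 34.1% with neither factor, 35.6% with p300/CBP only and 30.8% with both. The RUNX motif TGTGGT was found in 33.4%, 33.3%, 35.8% and 41.3%, respectively, and neither motif was tested. The CTCF core was found in 4.91% of the Pol II-only cAEs, 3.06% with neither, 1.13% with p300/CBP only and 4.23% of promoter windows.

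The nearest p300/CBP peak was rarely just outside the region. It lay at a median of 88.1 kb (quartiles 24.9 and 256 kb), within 1 kb of 16 regions and within 5 kb of 39 (3.76%, against 7.14% of the cAEs with neither factor). H3K4me3 was closer, at a median of 12.1 kb (5.26 and 26.7 kb), and within 1 kb of 73 regions (7.03%). The medians were 30.3 kb with neither factor and 52.3 kb with p300/CBP only, with 4.58% and 1.13% within 1 kb. The p300/CBP list came from 1 library, it holds 13984 peaks, the median peak measured 150 bp and no value per peak is given, so weak p300/CBP binding under the authors' threshold cannot be told apart from its absence. Likewise, a peak present in part of the cells cannot be told apart from a weak peak in all of them.

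The share of cAEs that carried Pol II without p300/CBP varied between chromosomes. It was highest on chromosome 19, with 71 of 304 (23.4%, 18.9% to 28.4%), followed by chromosome 16 (14.6%), chromosome 17 (12.9%) and chromosome 22 (12.1%). It was lowest on chromosome 4, with 18 of 860 (2.09%, 1.33% to 3.28%), and on chromosome 13 (2.99%). The Wilson interval of chromosome 19 lay above 6.62%, the share over all chromosomes, and that of chromosome 4 below it, and no test was made. Another Pol II-only cAE began within 50 kb of 206 of the regions (19.8%).

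**Figure D5:**
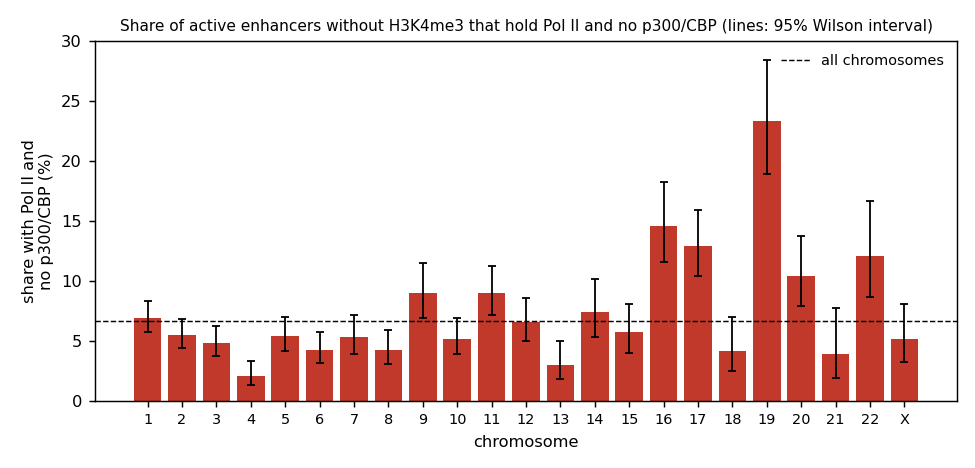
Share of cAEs without H3K4me3 that carried Pol II and no p300/CBP (y axis, %, with 95% Wilson intervals) on each chromosome (x axis), with the share over all chromosomes, 6.62%, as a dashed line. Chromosome 19 stands highest at 23.4% and chromosome 4 lowest at 2.09%.

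The regions were spread thinly over genes. Of 20176 protein-coding genes, 688 (3.41%) had a Pol II-only cAE in the body, 641 of them 1 region, 41 of them 2 and 6 of them 3. The TSS of 948 genes (4.7%) was the nearest to such a region. The genes with 3 were GPSM1, a regulator of G-protein signaling, TGM2, which cross-links proteins, MLPH, a linker of melanosomes to myosin, ACTN4, LOXL2, which cross-links collagen, and FRMD4A, a scaffold of cell polarity. Per 100 kb of gene they had 9.34 in GPSM1, 7.65 in TGM2, 4.29 in MLPH, 3.57 in ACTN4, 2.34 in LOXL2 and 0.367 in FRMD4A, whose body is 818 kb long. The densest genes with 2 regions were NKPD1, the chloride channel gene CLCN2, UQCC2 and the envoplakin gene EVPL of the cornified cell envelope.

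Pol II differed between these genes. The 3 regions in LOXL2 each contained a narrow Pol II peak of 150, 350 or 200 bp, with H3K27ac over 38.0%, 72.7% and 47.5% of the region. The 3 in FRMD4A had Pol II peaks of 3700, 1150 and 1400 bp and more H3K27ac, over 90.4%, 79.8% and 72.3%. The promoter window on the canonical TSS of FRMD4A carried neither H3K27ac nor Pol II, and other TSSs of the gene were not checked. Only 1050 bp of the peak of 3700 bp lay in its region. A p300/CBP peak lay only 0.101 kb outside that region, and H3K4me3 0.601 kb outside it. In TGM2 a peak of 9750 bp covered the gene's end and reached both chr20:36753051-36758651 and chr20:36759751-36765301, while the region at chr20:36767651-36775851 contained a peak of 2850 bp. In GPSM1, whose canonical promoter window had H3K27ac and no Pol II, the Pol II peaks measured 1000, 2300 and 300 bp. Both regions in CLCN2 were reached by a Pol II peak of 10250 bp, both in UQCC2 by one of 22000 bp, and both regions in CLCN2 and in EVPL held CTCF. Some regions also touched another gene: RPRD1B at TGM2, MARK4 at NKPD1, FAM131A at CLCN2, ITPR3 at UQCC2 and CDK3 at EVPL. Pol II there cannot be assigned to a single gene.

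Genes of processes known in this cell line were looked up in 10 lists, and counted where a Pol II-only cAE lay in the gene body or had the gene's TSS as its nearest. Position alone does not show which gene a region acts on. The paper holds that linking an enhancer to its nearest gene is frequently not justified. Over all protein-coding genes 1207 (5.98%) met this, with a median gene length of 27.2 kb. Of the list of receptor tyrosine kinases and RAS-MAPK feedback 7 of 21 genes did, with a median length of 42.5 kb. EGFR, the receptor of epidermal growth factor, held the region at chr7:55249951-55256551 within an intron, with 2 Pol II peaks of up to 1750 bp and H3K27ac over 37.9% of the region. Of the feedback inhibitors, SPRY4 was nearest to 2 regions at 72.7 and 41.5 kb downstream, the first with H3K27ac over 98.5% and a Pol II peak of 400 bp, the second inside a Pol II peak of 8150 bp. The MAP kinase phosphatase genes DUSP5 and DUSP4 were each the nearest to a region, at 6.67 and 303 kb upstream. At DUSP5 the wider of 2 Pol II peaks measured 41150 bp, and Pol II covered only 2200 bp of the region. At DUSP4 there were 3 peaks of up to 550 bp. The transcription factor gene ETV5 had one in its body with a Pol II peak of 500 bp, IER3 one at 66.3 kb upstream, and the ephrin receptor gene EPHA2 one at its end inside a Pol II peak of 15900 bp, where H3K27ac covered only 2.33%.

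Of the actin cytoskeleton and focal adhesion list, 6 of 21 genes qualified. Besides ACTN4, these included MYH9, the heavy chain of non-muscle myosin, with 2 regions in the body, VCL (vinculin), whose region lay inside a Pol II peak of 10300 bp, and PDLIM7, whose region lay inside one of 30650 bp. The region of ACTB (beta-actin) had only 50 bp in common with a Pol II peak of 150 bp. Pol II was thus listed as a wide peak over the gene in some members and as a narrow peak in others.

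The other lists had fewer genes. Of the hypoxia and glycolysis list 4 of 16 qualified, namely PFKP, LDHA, PKM and NDRG1, and at PKM a Pol II peak of 42050 bp reached the region, while a p300/CBP peak lay only 0.051 kb outside it. Of the TGF-beta pathway list 3 of 17 did (SMAD6, LTBP2 and SKIL), of the mesenchymal list 3 of 15 (SNAI1, SPARC and CD44), and of the plasminogen activator and protease list 2 of 13 (PLAU and ADAM17). In the regions of LTBP2 and CD44, and in that at chr1:94987301-94991101 nearest to F3, H3K27ac and Pol II shared no stretch. This last region lay near the ends of ABCD3 and F3. Its widest Pol II peak measured 19900 bp, and H3K27ac covered 13.2% of it. At CD44 only 50 bp of a Pol II peak of 4700 bp lay in the region, past the gene's end, and H3K27ac covered 7.02%. SNAI1, a repressor of E-cadherin, was nearest to a region 63.2 kb downstream with a Pol II peak of 350 bp, and SPARC, a matrix protein, to one 10.2 kb upstream with a peak of 550 bp. PLAU, the urokinase gene, was nearest to one 29.2 kb downstream with a peak of 300 bp and a CTCF peak. Of the YAP/TAZ and TEAD list 2 of 15 qualified (AMOTL2 and F3), of the integrin, laminin and collagen list 2 of 20 (ITGA2 and ITGB5), of the luminal list 2 of 15 (CDH1 and SPDEF), and of the AP-1 family 1 of 12 (MAFF). CDH1, SPDEF and MAFF qualified only as the nearest TSS, and their regions lay in other genes. The region near CDH1 lay in CDH3, and that near SPDEF touched an exon of PACSIN1. That near MAFF touched an exon of TMEM184B, near the ends of TMEM184B and MAFF. Neither FOSL1 nor FOSL2, the genes of Fra-1 and Fra-2, had one. The shares ranged from 8.33% to 33.3% against 5.98%, the median gene was longer than 27.2 kb in 6 of the 10 lists, and no list was tested.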

How the data were processed

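ChIP-seq reads had been aligned to hg19 and piled up in 50-bp bins with PASHA, replicates were merged, and peaks were called by thresholding and joining across gaps of up to 1000 bp (H3K4me1), 800 bp (Pol II), 500 bp (H3K27ac and H3K4me3) or 50 bp (p300/CBP and CTCF). The paper's methods name BWA-backtrack as aligner and the submitters' processing notes Bowtie2, so that the aligner behind the lists is not settled. The files deposited by the authors hold 1 list of peak positions per antibody (unit: base pairs, no count, height or score per peak), whose names say that the signal was scaled, except for CTCF, and had background removed, except for CTCF and Pol II. Depth per sample is therefore unknown, replicates could not be compared, and Wilson intervals (95%) cover counting error only. Input libraries were not analysed here. The deposited p300/CBP list is longer than the one the paper describes, for reasons not given in the sources used here, and with a shorter list more regions would count as lacking p300/CBP. Joining across up to 1000 bp makes H3K4me1 regions wider, and a wider region meets more peaks.

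Lists were compared by position in Python 3.11.15 (SciPy 1.17.1, NumPy 2.4.6; figures in matplotlib 3.10.9). Ends were read as the first base after a peak, and coordinates are as listed. Genes, exons and TSSs came from GENCODE release 44 on GRCh37 (19894 canonical protein-coding TSSs). Overlap queries gave 0 wrong answers on simulated intervals. Fisher's exact tests were adjusted over 8 tests (CTCF, gene body, non-coding TSS, AP-1) and, for gene end and exon, over 4. Motifs were matched exactly in 500 bp centred on the longest stretch shared by H3K4me1 and H3K27ac. Alternatives changed overlap, exclusion distance, Pol II position, promoter windows, widths and motif windows. All 15683 cAEs were used for the background shares.

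The regions, gene lists and tests were chosen with earlier results of these data known. Genes and regions are named by rule: the 10 genes with most regions in the body (ties by density), the genes of the lists that qualified, and the 3 regions each with the longest shared run, farthest from a TSS, inside the widest Pol II peaks, and just under or over the width limit. The CTCF sequences and the regions with lncRNA or non-canonical TSSs were chosen after their values were seen. No column was left unmapped. Some items that the rules select are not reported here.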

Additional observations from a re-analysis of the deposited data

How the results depend on the processing

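Of 182 values under alternative settings for 21 results, 155 stayed the same (a share or median inside its own 95% interval, the number of regions within 1.5 times, an odds ratio on the same side of the test whatever its size), 16 shares or counts moved, 11 odds ratios lost significance and 0 changed direction. With H3K4me1, H3K27ac and Pol II peaks narrower than their list's median left out, used because no stricter threshold could be applied without values per peak, 182 regions were left. In these, 42.9% contained a Pol II peak, 42.3% touched a gene end, 73.6% a gene body and 30.8% CTCF, and Pol II reached a promoter window in 10.4%. With the Pol II centre inside the region, 84.5% contained a Pol II peak, 4.76% lay inside one, 23.9% touched a gene end and 0.611% had Pol II in a promoter window. With 50% overlap, 74.5% contained a Pol II peak and 2.83% had it in a promoter window, and with no H3K4me3 or p300/CBP within 1 kb these were 70.4% and 3.13%. The AP-1 heptamer was in 19.3% of 300-bp and 43.6% of 1000-bp windows.

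The 11 odds ratios, from Fisher's exact tests, all concerned the AP-1 heptamer. Against cAEs with neither factor they were, by exact test, 0.906 (Pol II centre, adjusted p = 0.249), 0.926 (200 bp overlap, 0.374), 0.861 (50% overlap, 0.0525) and 0.807 (wide peaks, 0.223). Against those with p300/CBP only they were, by exact test, 0.907 (Pol II centre, 0.273), 0.859 (all basic TSSs, 0.0586), 0.967 (1 kb exclusion, 0.691), 0.938 (200 bp overlap, 0.456), 0.903 (50% overlap, 0.226), 0.803 (wide peaks, 0.223) and 0.865 (without sequence near the longest undetermined stretch, 0.0734). The cause was not tested.

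The odds ratios for CTCF stayed between 1.57 and 2.83 against neither factor and between 2.15 and 3.56 against p300/CBP only, those for gene ends between 5.66 and 13.8 and between 5.50 and 18.2, and those for exons between 2.88 and 6.14 and between 2.73 and 8.86, with the highest value of each from wide peaks. No paired analysis was possible because replicates were merged before peaks were called, which also left no replicate to leave out in turn. The depth behind each peak is unknown, which limits every statement on absence.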
